A study of Mus musculus with 8 samples.

Results

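The subunits of the glutamate and GABA receptors were followed across 8 microarrays. The 47 genes were chosen by name from the array's gene annotation: 26 encode glutamate receptors (Gria, Grid, Grik, Grin and Grm genes) and 21 encode GABA receptors (Gabr and Gabbr genes), out of 34541 gene names. They were represented by 78 of 55419 probes, and each gene was read from its brightest probe, taking the mean of 8 arrays. The choice went by gene name and used no difference between samples, though it was made with earlier results of these data known.

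Glutamate opens AMPA, kainate and NMDA receptors, which are cation channels built from Gria, Grik and Grin subunits, and it also acts through G-protein-coupled metabotropic receptors encoded by the Grm genes. GABA opens GABA-A receptors, which are chloride channels assembled from alpha, beta, gamma and other subunits, and it activates the GABA-B receptor, a G-protein-coupled dimer of Gabbr1 and Gabbr2. In the embryonic brain many of these subunits appear as neurons begin to differentiate, and GABA depolarises immature neurons that still hold high internal chloride.

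The study asked how mouse embryonic stem (ES) cells driven toward forebrain and eye field compare with embryonic tissues. K/l-EB5 cells, a male 129/Ola ES line in which GFP reports the eye-field gene Rax, were differentiated for 10 days in vitro. They received 5 µM of the Wnt inhibitor IWR-1-endo from day 3, and 12 h later either 10 ng/ml activin A or 100 nM of the Sonic Hedgehog agonist SAG. Each culture was sorted into RAX::GFP-positive (RAX+) and RAX::GFP-negative (RAX-) cells, which gave 4 arrays. The Wi control came from another male 129/Ola line, E14Tg2A, that was given the Wnt inhibitor with no further agent in the labels and no sort. Cortex, diencephalon/hypothalamus and eye were dissected from n = 3 E12.5 embryos of the Sv129s6 strain, of mixed sex. Each group is 1 array, made from a pool of RNA from 3 sets of experiments, so there is no spread between replicates, and differences between arrays carry no p-value. All cultures shared the Wnt inhibitor, and each condition rests on a single line.

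Levels are given as the log2 signal of a probe minus the log2 of the 75th percentile of all non-control spots on that array, so 1 unit is 2-fold and 0 is the array's own 75th percentile. A level can be compared between arrays for the same probe, not between probes. The spot flag "well above background" was used for detection, and 59.5% to 79.3% of spots carried it. The lowest level of any probe with that flag lay between -7.45 and -5.60 on the different arrays. A set of 1389 olfactory, vomeronasal and taste receptor genes was taken as genes not looked for in these cells. Of them, 11.6% to 24.4% were called well above background on 7 arrays and 44.1% in activin RAX+ cells. The spike-in detection limit was also highest in activin RAX+ cells. The spike-in slope was flagged as out of range in activin RAX+, SAG RAX+ and SAG RAX- cells and in diencephalon/hypothalamus. The effect of this on fold sizes was not tested. The level of Rax was 5.46 and 5.49 in RAX+ cells after activin and SAG, and 2.31 and 3.09 in RAX- cells. It was 4.54 in eye, 3.16 in diencephalon/hypothalamus, -3.32 in cortex and -4.07 in the Wi control. In each tissue, 10 of 10 defining markers of that tissue were well above background. Detection alone does not tell the arrays apart. The eye markers were also 10 of 10 in both activin populations and diencephalon/hypothalamus, and the cortex markers in the Wi control and diencephalon/hypothalamus. The median level of the eye markers was 3.96 in eye, -2.71 in activin RAX+ cells and -2.84 in diencephalon/hypothalamus. That of the cortex markers was 2.14 in cortex, 1.96 in the Wi control and -1.38 in diencephalon/hypothalamus. The Wi control was hybridised on a slide of its own and differs from the sorted cells in line and in sorting too, so these cannot be told apart in anything said of it.

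Most of the receptor genes gave signal on most arrays. By the brightest probe of each gene, well above background were 38 of 47 genes in activin RAX+ cells, 29 in activin RAX- cells, 34 in SAG RAX+ cells, 41 in SAG RAX- cells, 44 in the Wi control, 36 in cortex, 46 in diencephalon/hypothalamus and 43 in eye. The same share over all gene names was 82.5%, 65.3%, 74.1%, 70.6%, 72.4%, 67.8%, 76.6% and 78.5% in that order. The receptor genes thus stood above the share of all genes in diencephalon/hypothalamus (97.9%), the Wi control (93.6%), eye (91.5%), SAG RAX- cells (87.2%) and cortex (76.6%). They stood near that share, slightly below it, in activin RAX+ (80.9%), SAG RAX+ (72.3%) and activin RAX- cells (61.7%). In activin RAX+ cells the count of detected receptor genes came with the high share of sensory receptor genes given above, and the part of that signal in the count was not tested. Counting any probe of a gene added arrays for 4 genes, Grik2, Grin3a, Gabrb1 and Gabrg1, and gave 40, 30, 35 and 42 genes in the 4 sorted populations in the same order, with no change on the 4 other arrays. Detection of a gene below refers to its brightest probe unless another is named.

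**Figure D1:**
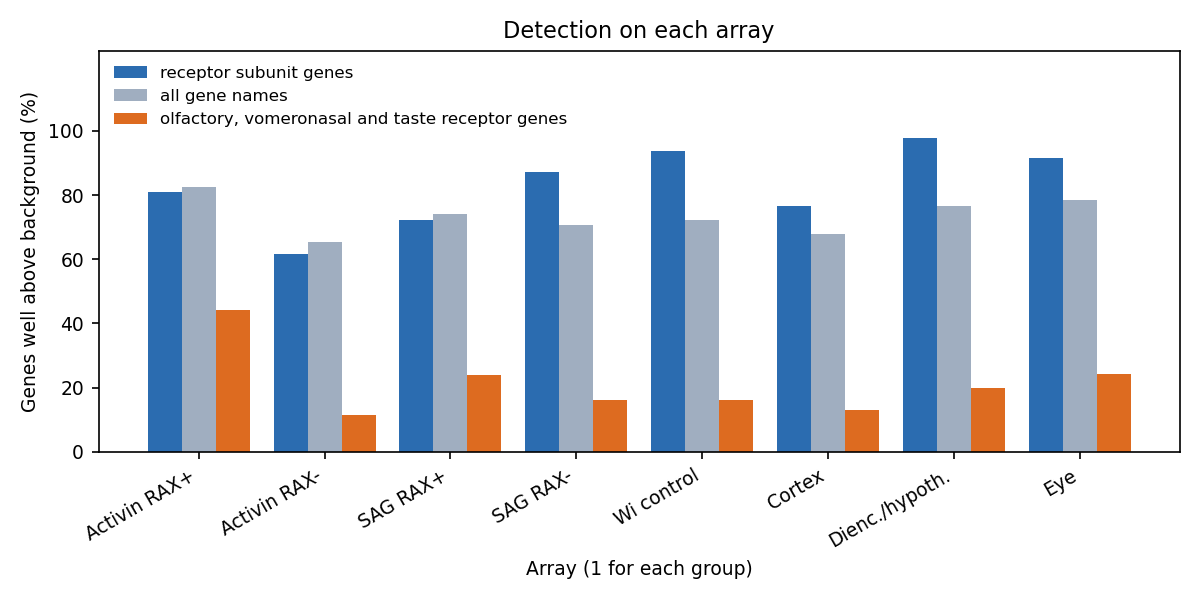
Percentage of genes well above background on each array (y axis) for the 47 receptor subunit genes, all 34541 gene names and 1389 sensory receptor genes; bars start at 0. The receptor genes reach 97.9% in diencephalon/hypothalamus and 61.7% in activin RAX- cells, and the sensory receptor genes reach 44.1% in activin RAX+ cells.

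Well above background on all 8 arrays were 26 of the 47 genes, against 59.4% of all gene names. Among them were Gria2, Gria3, Gria4, Grik3, Grik4, Grik5, Grin1, Grin2b, Grin3b, Grm5, Grm2, Grm8, Gabra2, Gabra3, Gabra4, Gabra5, Gabrb2, Gabrg3, Gabre, Gabrr1, Gabrr2, Gabbr1 and Gabbr2. Gabra6, the alpha subunit known from cerebellar granule cells, was not well above background on any array, as for 10% of all gene names. Gabrq, which encodes the theta subunit, passed on 1 array, diencephalon/hypothalamus, at a level of -5.27. Grm3 and Grm6 passed on 3 arrays, and the other genes on 3 to 7.

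The array on which a gene was highest was the Wi control for 18 genes, diencephalon/hypothalamus for 11, SAG RAX- cells for 7 and eye for 7. Activin RAX+ cells were highest for 3 genes and activin RAX- cells for 1, while SAG RAX+ cells and cortex were highest for 0. A lead of at least 1 log2 unit over the second array was seen for 13 of these genes: 5 in the Wi control, 4 in diencephalon/hypothalamus, 2 in eye, 1 in SAG RAX- cells and 1 in activin RAX- cells. Neither count was made over all gene names, so they cannot be read as a trait of the receptor genes. Gabra6, not well above background on any array, is among the 7 genes of SAG RAX- cells.

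**Figure D2:**
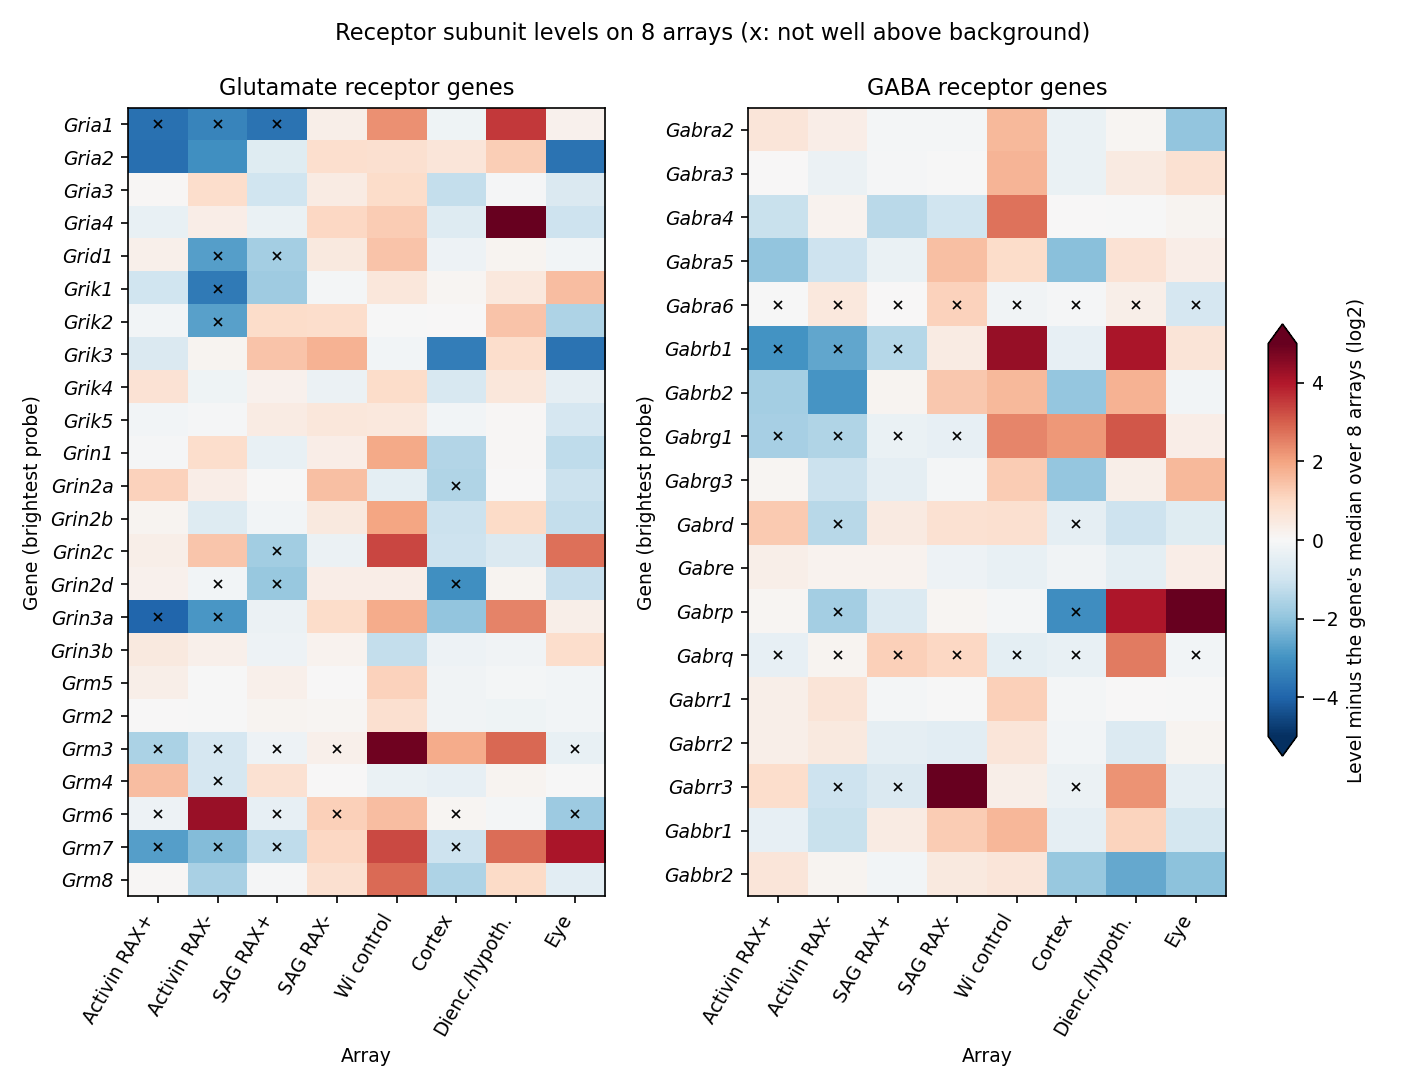
Level of 42 of the 47 receptor genes on 8 arrays as the difference from that gene's own median (log2 colour scale, cut at 5 in either direction); a cross marks an array where the probe was not well above background. Cells of the Wi control, diencephalon/hypothalamus and SAG RAX- columns are mostly above the gene median, and rows such as Grm2, Gabre and Gabrr1 vary little.

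How far a gene's values can be read depends on its probe. For 23 of the 47 genes the array holds more than 1 probe, and the brightest and second brightest probe were compared. Both placed the highest level on the same array for 11 of 23 genes, their correlation over the 8 arrays was at least 0.7 for 10 and under 0.3 for 3 (the arrays are different conditions, so this is a description). The sequences below are shown because the largest differences in the data turn on them. They come from the deposited probe annotation, which places probes on the mm9 build, and a stretch of each 60-base probe is given.

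The 2 probes of Gabra2, an alpha subunit of synaptic GABA-A receptors, lie on chromosome 5, minus strand. The brighter one is annotated at 71352276 to 71352334 and the dimmer at 71352306 to 71352365. They share 29 bases, printed in capitals, and differ in the rest:
Gabra2, shared by both probes: TCAGCTCACTTCAATCATTGGAAACTACC
Gabra2, bases 31 to 60 of the brighter probe: aaaatttagaagaagaaggagaagaagaag
Gabra2, bases 1 to 30 of the dimmer probe: cagagtttatttgaaagtagtaatgaacct
The brighter probe stood at -0.10, -0.36, -0.81 and -0.80 in activin RAX+, activin RAX-, SAG RAX+ and SAG RAX- cells, where the dimmer one stood at -8.31, -7.09, -5.95 and -3.60. In the Wi control, cortex, diencephalon/hypothalamus and eye the brighter probe read 0.92, -1.02, -0.60 and -2.68 and the dimmer -0.03, -1.51, -1.07 and -3.51. The dimmer probe was thus not well above background in either activin population, where the brighter one was at its highest among the sorted cells. The purine-rich end of the brighter probe shares a run of 20 or more bases with 3 probes of other names on the array, and the part of such runs in its signal was not tested. The correlation of the 2 probes over the 8 arrays was 0.07.

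Gria4, an AMPA receptor subunit, has probes on chromosome 9, minus strand, at 4417896 to 4417955 and at 4502385 to 4502444. The capitals mark 23 bases that the brighter probe shares with a probe of Slit1:
Gria4, bases 31 to 60 of the brighter probe: aggtGCTTAATAAATATTTGTTGAATGaaa
Gria4, bases 16 to 45 of the dimmer probe: gtagagttaattacacaatggatgtgtttg
Both probes were highest in diencephalon/hypothalamus, at 5.37 and -0.95. On the 7 other arrays the brighter probe lay between -2.19 and 0.14 and the dimmer between -3.79 and -1.57.

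Gabrr3, a rho subunit of the kind known from retinal bipolar cells, has probes on chromosome 16, plus strand, at 59461506 to 59461565 and at 59429926 to 59429985:
Gabrr3, bases 16 to 45 of the brightest probe: tgttgactttttcctttctttgcagtactc
Gabrr3, bases 16 to 45 of the second probe: tcatgcttcgagtacatcccgatgggaatg
The brightest probe read 0.00 in SAG RAX- cells and between -7.48 and -4.22 on the other arrays. The second probe was not well above background on any array, at -7.87 in SAG RAX- cells.

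Gabrb1, a beta subunit, is the opposite case. Its brightest 2 probes, on chromosome 5, had a correlation of 0.99 over the 8 arrays. They read -0.91 and -1.15 in the Wi control and -1.18 and -1.84 in diencephalon/hypothalamus, and both were lower on the 6 other arrays. A dimmer probe of Gabrb1 was highest in activin RAX+ cells, at -4.42, and not well above background in the Wi control.

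**Figure D3:**
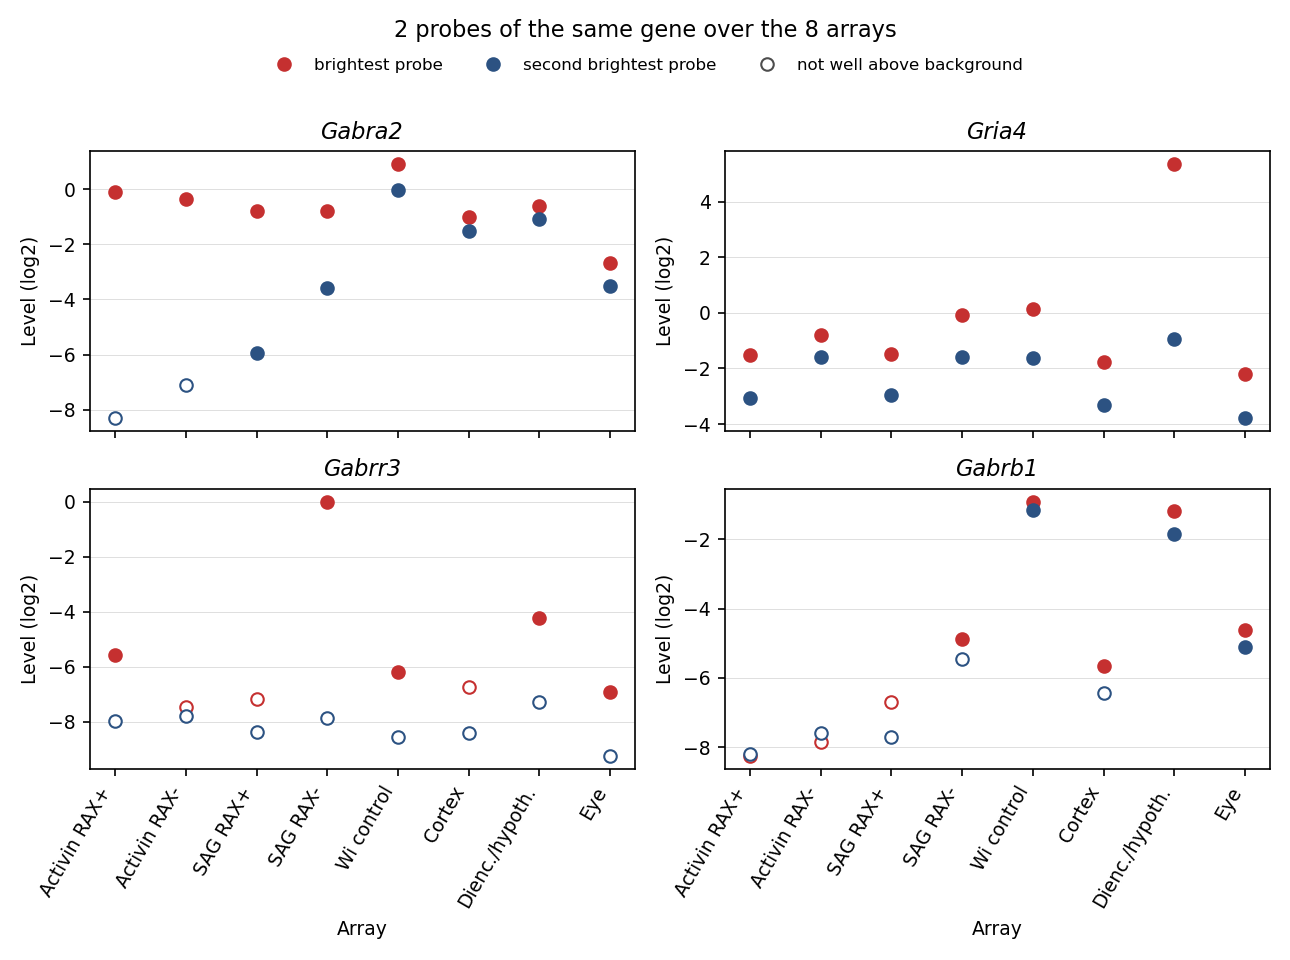
Levels (log2, y axis) of the brightest and second brightest probe of Gabra2, Gria4, Gabrr3 and Gabrb1 on the 8 arrays; open circles are not well above background. The Gabrb1 probes run in parallel, the dimmer Gabra2 probe is open in both activin populations, and the brightest probes of Gria4 and Gabrr3 each stand out on 1 array, at 5.37 and 0.00.

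Among the AMPA receptor genes, Gria2 encodes the subunit that, once edited, keeps calcium out of the channel. Its level was -0.24 in diencephalon/hypothalamus, -0.64 in SAG RAX- cells, -0.69 in the Wi control and -0.89 in cortex, then -2.08 in SAG RAX+ cells and -4.57, -5.16 and -5.24 in activin RAX- cells, eye and activin RAX+ cells. By this probe Gria2 thus fell into a high set of 4 arrays, SAG RAX+ cells in between and 3 low arrays. The second Gria2 probe was well above background only in the Wi control and diencephalon/hypothalamus, at -4.54 and -4.97. It read -5.98 in SAG RAX- cells and -6.90 in cortex. Gria1 read -0.90 in diencephalon/hypothalamus, -2.14 in the Wi control, -4.12 in SAG RAX- cells, -4.21 in eye and -4.64 in cortex, and was not well above background in the 3 other sorted populations, at -8.16 to -7.71. Gria3 varied over 2.08 log2 units.

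All 5 kainate receptor genes were well above background on 7 arrays, and 3 of 5 in activin RAX- cells by the brightest probe, or 4 of 5 by any probe, since the second Grik2 probe passed there. By its brightest probe Grik3 stood at 2.37 and 2.05 in SAG RAX- and RAX+ cells, 1.52 in diencephalon/hypothalamus, 0.79 and -0.10 in activin RAX- and RAX+ cells and 0.49 in the Wi control, against -2.83 in cortex and -3.04 in eye. Grik3 was therefore higher on each culture array than in cortex or eye. Grik4 and Grik5, the subunits that bind kainate with high affinity, ranged over 1.72 and 1.44 log2 units. Grik1 was highest in eye, at -2.28, and not well above background in activin RAX- cells. Grid1, a delta receptor gene related to the AMPA and kainate receptor genes, was weak, with a highest level of -3.64 in the Wi control.

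Among the NMDA receptor genes, Grin1, the subunit that every NMDA receptor needs, was well above background on all 8 arrays by its brightest probe. That probe lay between -5.48 in cortex and -2.13 in the Wi control. The second Grin1 probe passed on 4 arrays and not in the Wi control, where it read -5.99. The correlation of the 2 probes over the 8 arrays was 0.31. Grin2b, the main Grin2 subunit of the embryonic brain, ran from -5.19 in eye to -2.01 in the Wi control. Grin2c, a subunit known from the cerebellum, read -1.0 in the Wi control and -1.58 in eye, -2.94 and -4.06 in activin RAX- and RAX+ cells, -4.63 in SAG RAX- cells, -5.06 in diencephalon/hypothalamus and -5.38 in cortex, with SAG RAX+ cells not well above background at -6.09. Eye and the Wi control were the 2 high arrays for Grin2c. Grin3a, a modulatory subunit that binds glycine, stood at -0.86 in diencephalon/hypothalamus, -1.49 in the Wi control, -2.41 and -3.65 in SAG RAX- and RAX+ cells, -3.04 in eye and -5.30 in cortex, and this probe was not well above background in either activin population. The second Grin3a probe was, in activin RAX+ cells, at -4.18. By their brightest probes Grin2a, Grin2d and Grin3b stayed at or below -3.80, -5.0 and -3.55 on every array. The Grin3b probe has a run of 37 bases that is antisense to a Tmem259 probe, and the 2 genes' signals were not separated here.

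Among the metabotropic glutamate receptors, the group I gene Grm5, whose product couples to phospholipase C, was detected on all 8 arrays by its brightest probe. That probe varied over 1.32 log2 units. The second Grm5 probe varied over 4.92, from -6.18 in activin RAX+ cells to -1.26 in the Wi control. It was not well above background in either activin population. For cortex against diencephalon/hypothalamus it gave -2.74 log2, where the brightest probe read -3.93 and -3.85. The group II gene Grm2 varied over 1.02. The other group II gene, Grm3, read -1.77 in the Wi control, -3.74 in diencephalon/hypothalamus and -4.77 in cortex and was not well above background elsewhere. Of group III, Grm6, the glutamate receptor of retinal ON bipolar cells, read -2.46 in activin RAX- cells, -5.24 in the Wi control and -6.86 in diencephalon/hypothalamus. The 5 other arrays, eye included at -8.59, did not give Grm6 well above background. Grm7, a presynaptic receptor, read -1.51 in eye, -2.29 in the Wi control, -2.77 in diencephalon/hypothalamus and -4.56 in SAG RAX- cells, with cortex and the 3 other sorted populations not well above background at -8.34 to -6.60. Grm4 and Grm8 were detected on 7 and 8 arrays.

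The GABA-A alpha genes encode the subunits that, beside beta, form the GABA binding site. By their brightest probes Gabra3, Gabra4 and Gabra5 were detected on all 8 arrays, with highest levels of 1.90 and -0.85 in the Wi control and -1.99 in SAG RAX- cells. The second Gabra3 probe was highest in SAG RAX- cells, at -1.26, and read -5.15 in the Wi control. It was not well above background in activin RAX- cells or cortex, and its correlation with the brightest probe was -0.05. Gabra4 in the Wi control exceeded the next array, activin RAX- cells at -3.39, by more than 2 log2 units.

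Of the beta genes, Gabrb1 read -0.91 in the Wi control and -1.18 in diencephalon/hypothalamus, -4.62, -4.87 and -5.66 in eye, SAG RAX- cells and cortex, and its brightest probe was not well above background in the 3 other sorted populations. Its dimmest probe was, in activin RAX+ and SAG RAX+ cells, at -4.42 and -4.87. Gabrb2 read 1.13 in diencephalon/hypothalamus, 1.00 in the Wi control, 0.71 and -0.49 in SAG RAX- and RAX+ cells, -0.75 in eye, -2.31 in activin RAX+ cells, -2.56 in cortex and -3.58 in activin RAX- cells. The brightest Gabrg1 probe was well above background in the 3 tissues and the Wi control, at -5.87 to -3.08, and in 0 of the 4 sorted populations, while the second one passed in SAG RAX- cells, at -5.28.

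Gabrp, the pi subunit known from epithelia, read -0.08 in eye and -1.09 in diencephalon/hypothalamus, between -5.82 and -5.02 in SAG RAX+, SAG RAX- and activin RAX+ cells and the Wi control, and was not well above background in activin RAX- cells (-6.84) or cortex (-8.26). Eye and diencephalon/hypothalamus thus stood apart from the 6 other arrays. At the other end, Gabre varied over 0.79 log2 units. The rho genes Gabrr1 and Gabrr2, which form receptors once called GABA-C, were detected on all 8 arrays and each varied over 1.28. Gabbr1, the partner that binds GABA in the GABA-B receptor, ran from 0.50 in activin RAX- cells to 3.25 in the Wi control, and Gabbr2, which couples to the G protein, from -6.06 in diencephalon/hypothalamus to -2.91 in activin RAX+ cells.

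For each pair of arrays a difference of at least 1 log2 unit was called when the brighter array was well above background. Where the dimmer array was not, it was entered at its own level or at the array's lowest well-above-background level, whichever was higher, and such folds are lower bounds, written with "at least". A bound under 2-fold leaves the size of the difference unknown. The scanner's own error on a difference had a median of 0.20 log2, which leaves out variation between cultures or embryos.

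After SAG, receptor genes were lower in RAX+ than in RAX- cells. Of 41 genes that could be compared, 18 were lower by at least 2-fold and 0 were higher, against 10.6% lower and 4.57% higher over all genes. The median difference was -0.80 for the receptor genes and 0.06 for all genes. Of the 18 lower genes, 11 encode glutamate and 7 GABA receptors. Fewer cells of a type and less RNA per cell cannot be told apart in these sorted populations.

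Gabrr3 differed most by its brightest probe, with 0.00 in RAX- and -7.17 in RAX+ cells, at least 144-fold lower, but its second probe was not well above background in either. Gria1 was at least 8.35-fold lower in RAX+ cells. Grm7 and Grid1 were at least 4.92-fold and 4.64-fold lower. Also lower were, among others, Gria2, Gria3, Gria4, Grik1, Grin2a, Grin2c, Grin2d, Grin3a, Gabra5, Gabrb1 and Gabrb2. Among these Gabra5, an alpha subunit known from extrasynaptic receptors, read -3.82 in RAX+ and -1.99 in RAX- cells (3.56-fold, log2 difference -1.83, scanner error 0.21). Each of the 4 AMPA receptor genes was therefore lower in SAG RAX+ cells. The second Grin3a probe, well above background on both arrays, gave a log2 difference of -0.16. The second probes of Gabra2 and Gabra3, whose brightest probes were within 2-fold, gave -2.34 and -3.60. Grm5, Grm2 and both GABA-B genes were not past 2-fold. The count of lower genes was 11 with both arrays required to be well above background and 6 after normexp background correction, which compresses weak signals and leaves Gria1, Grm7 and Grid1 under 2-fold; the authors' normalized values gave 13 lower and 1 higher.

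**Figure D4:**
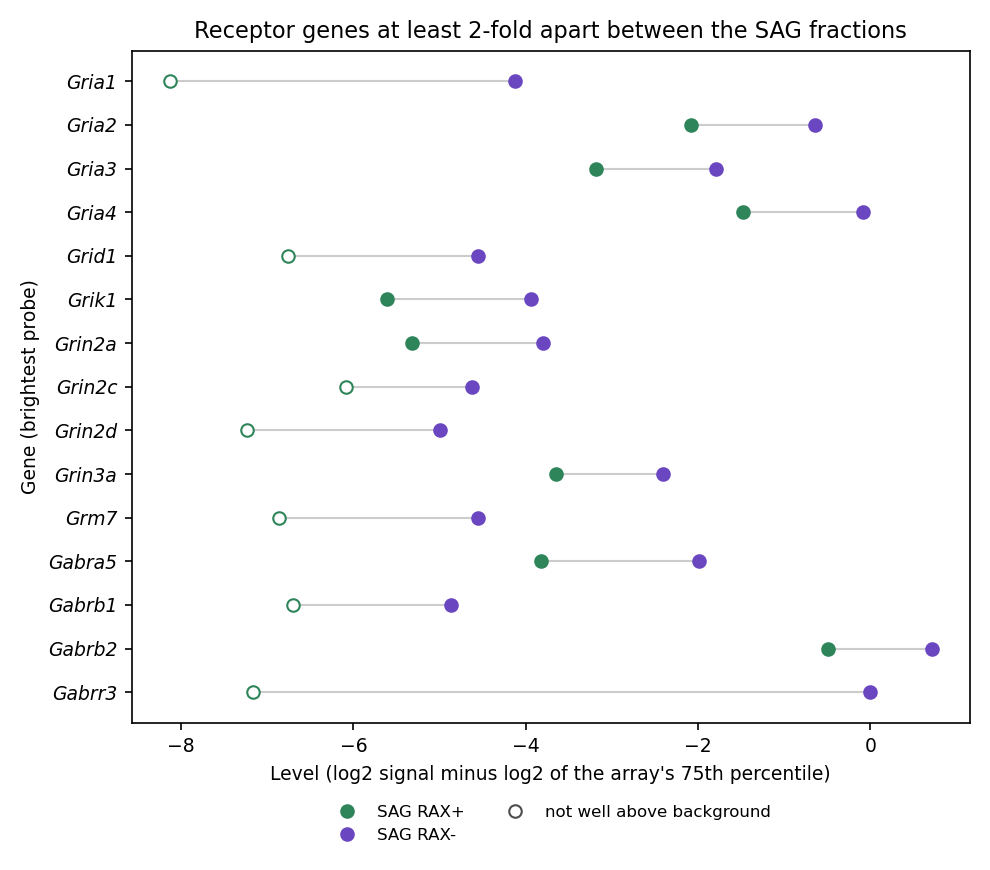
Levels (log2, x axis) of 15 of the receptor genes that differed at least 2-fold between SAG RAX+ and SAG RAX- cells; open circles are not well above background. Each RAX+ point lies left of its RAX- point, and 7 of the RAX+ points are open.

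Neuronal and transmitter genes differed in the same pair of arrays. Of 20 neuron markers, all well above background in both populations, 11 were lower in SAG RAX+ cells and 0 higher (median -1.24), and their summed level was 163 times the array's 75th percentile in RAX+ and 365 times in RAX- cells. Of 16 compared genes for transmitter synthesis, vesicular loading, uptake and chloride transport, 9 were lower and 1 higher. Among them Gad1 and Gad2, which make GABA, stood at -1.52 and -0.01 in RAX+ and 2.14 and 2.44 in RAX- cells, and the vesicular GABA transporter Slc32a1 at 1.52 and 4.49. Of 34 scaffold and auxiliary genes of these receptors, 9 were lower and 0 higher. Other cell-type markers differed too: mesenchyme and neural crest markers were lower in RAX+ cells for 6 of 9 (median -1.63), pluripotency genes for 6 of 10 (median -1.33), and progenitor markers were higher for 5 of 12. The part of these markers in the receptor differences was not tested.

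After activin the pattern was mixed. Of 38 genes compared, 7 were higher in RAX+ cells and 4 lower, against 10.7% and 6.44% of all genes, and the medians were 0.28 and 0.14. Scaling the arrays by their medians in place of the 75th percentile moves every difference in this pair by -0.32 and turns the split to 3 higher and 9 lower, so no direction is drawn from it.

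Among the genes higher in activin RAX+ cells were Grm4 (at least 5.20-fold), Grik2 (at least 4.87-fold), Grm8 (3.28-fold, log2 difference 1.71, error 0.33), Gabrb2 (2.41-fold), Gabrd (at least 2.31-fold) and Gabrg3 (2.28-fold). Sensory receptor genes were well above background for 44.1% in activin RAX+ and 11.6% in activin RAX- cells. The part of such signal in these folds was not tested, nor in the other pairs with activin RAX+ cells. The second Grm4 probe differed by at least 0.36 log2, a bound, the second Gabrg3 probe by 0.46, under 2-fold, and the second Grik2 probe by 2.15. With median scaling Gabrb2, Gabrd and Gabrg3 fell under 2-fold (0.95, 0.89 and 0.87 log2), and with normexp correction so did they (0.85, 0.27 and 0.45), Grik2, Grm8, Gabra4 and Grin2c. Among the lower were Grm6 (at least 12.9-fold), Gabra4 (2.49-fold) and Grin2c (2.18-fold). Of the neuron markers, 2 were higher and 4 lower. RAX- cells after activin also held pluripotency genes: 8 of 10 were lower in RAX+ cells, with a median of -5.38 and summed levels of 10.7 in RAX+ and 111 in RAX- cells. Mesenchyme and neural crest markers were lower for 8 of 10 (median -2.21) and mesoderm and endoderm markers for 7 of 8 (median -3.77), and progenitor markers were higher for 6 of 12. Their part in the receptor values was not tested.

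Between the treatments, receptor genes were lower after activin than after SAG in RAX- cells. Of 42 genes compared, 19 were lower and 4 higher, against 15% and 12.8% of all genes, with medians of -0.72 and 0.04. Of the 19, 11 encode glutamate and 8 GABA receptors, and 10 genes were lower after normexp correction. Gabrr3 was at least 48.6-fold lower by its brightest probe, Gabrb2 19.6-fold (log2 difference -4.29, error 0.22) and Gria2 15.2-fold (-3.93, error 0.26). Grik2 and Grin3a were at least 9.85-fold and 9.11-fold lower. The second Grik2 probe, well above background on both arrays, was 4.45-fold lower, less than that bound, and the second Grin3a probe at least 2.81-fold. Higher after activin were Grm6 (at least 8.70-fold), Grin2c (3.23-fold), Gabra4 (2.28-fold) and Gabrr2 (2.03-fold). Neuron markers were lower in 17 of 20 cases and higher in 0 (median -2.81), and transmitter genes lower in 9 of 17 and higher in 4. Pluripotency genes were higher after activin for 8 of 10 (median 2.80) and mesoderm and endoderm markers for 6 of 8 (median 3.23). Their part in the receptor values was not tested. Gabra4 and Gabrr2 were under 2-fold with normexp correction.

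In RAX+ cells 7 of 39 genes were lower after activin and 7 higher, against 6.75% and 17.6% of all genes, with medians of 0.28 and 0.24. Among the lower genes were Gria2 (8.96-fold), Grin3a (at least 5.64-fold), Grik3 (4.44-fold, log2 difference -2.15, error 0.20), Gabrb2 (3.53-fold), Gabra5 (3.16-fold) and Grik2. The second probes of Grin3a and Grik2 gave 0.09 and -0.14, both under 2-fold. The second Grik3 probe, not well above background after SAG, gave at least 0.32, with the opposite sign. Among the higher genes were Grin2d, Grin2c, Grid1 and Gabrr3 (at least 4.15-fold, 4.09-fold, 3.95-fold and 3.03-fold), Grin2a (2.26-fold) and Gria3. Of the 7 higher genes, 5 were not well above background after SAG, and with both arrays required to be so 2 genes were higher. Quantile normalization gave 5 higher and 8 lower, and the authors' normalized values 1 higher and 6 lower. With normexp correction Grin2d, Grin2c, Grid1, Gabrr3, Grin2a and Gabra5 were under 2-fold. Neuron markers were lower after activin in 15 of 20 cases, and mesoderm and endoderm markers were higher for 5 of 8 (median 1.43).

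The 4 sorted arrays form a layout of gate by treatment, and an additive model was fitted with limma on 26403 genes with 1 residual degree of freedom. With Benjamini-Hochberg adjustment 0 of 38 receptor genes and 0% of all genes passed 0.05 for either factor. The smallest adjusted p among receptor genes was 0.585 for the gate and 0.329 for the treatment. At an unadjusted p under 0.05, 5 receptor genes were lower in RAX+ cells (Gria3, Grin2c, Grin3a and Gabra5 among them) and 0 higher, beside 7.48% of all genes in either direction. For the treatment, 6 were lower after activin (Gria2, Grik3, Grin3a, Gabra5 and Gabrb2 among them) and 1 higher (Grin2c), beside 13.5%. The treatment estimate of Gria2 was -3.54 (standard error 0.36) and that of Grin3a -3.75 (standard error 0.30). The fit entered readings not well above background as measured values, and for Grin3a these were both activin populations. The second Grin3a probe gave 0.09 log2 for activin against SAG in RAX+ cells and at least 2.81-fold lower in RAX- cells. With 1 array per combination, the 1 residual degree of freedom is the departure from additive gate and treatment effects. The standard errors and p-values of this fit combine that departure with a variance pooled over all genes fitted, which carried 2.23 prior degrees of freedom. They do not measure a spread between replicates.

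Among the tissues, receptor genes were lower in cortex than in diencephalon/hypothalamus. Of 44 genes compared, 26 were lower in cortex and 0 higher, against 11.2% lower and 8.79% higher over all genes, and the medians were -1.11 and 0.08. Scaling by medians moves every difference here by 0.38 and leaves 19 lower and 1 higher, and normexp correction leaves 15 lower. Of the 26, 15 encode glutamate and 11 GABA receptors.

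Gria4 differed most, at -1.78 in cortex and 5.37 in diencephalon/hypothalamus (142-fold), but its second probe gave a log2 difference of -2.35. Gabrp was at least 36.6-fold lower in cortex. Gabrb1 was 22.4-fold lower (log2 difference -4.48, error 0.29), and its second probe, not well above background in cortex, was at least 21.8-fold lower. Grin3a was 21.7-fold lower and Grik3 20.4-fold. The second Grik3 probe was not well above background in cortex and gave only a bound, at least 1.51-fold lower. Also lower in cortex were, among others, Gria1, Gria3, Grik2, Grik4, Grin1, Grin2a, Grin2b, Grin2d, Grm3, Grm7, Grm8, Gabra5, Gabrb2, Gabrg3, Gabrq, Gabrr3 and Gabbr1. The second probes of Gabrg3 and Grik2 gave 0.12 and -0.95 log2, both under 2-fold. Gria2 was within 2-fold by its brightest probe, at -0.89 and -0.24. Its second probe, not well above background in cortex, was at least 2.49-fold lower there. Neuron markers were lower in cortex in 13 of 20 cases (median -1.48), and Gad1, Gad2 and Slc32a1 stood at -5.95, -5.15 and -2.46 in cortex and 1.31, 2.29 and 4.04 in diencephalon/hypothalamus. Their part in the receptor differences was not tested.

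Eye and diencephalon/hypothalamus also differed mostly in this direction. Of 46 genes compared, 21 were lower in eye and 7 higher, against 8.07% and 11.4% of all genes, with medians of -0.81 and 0.19. By medians the split was 23 lower and 4 higher. Among the genes lower in eye were Gria4 (189-fold, second probe -2.85 log2), Gria2 (30.2-fold, log2 difference -4.92, error 0.22, second probe at least 4.60-fold), Grik3 (23.6-fold, second probe at least 2.79-fold), Gabrb1 (10.9-fold) and Gria1 (9.93-fold). Among those higher in eye were Grin2c (11.1-fold, log2 difference 3.48, error 0.22), Gabrg3 (2.49-fold), Grm7 (2.40-fold), Grin3b (2.05-fold), Gabrp (2.02-fold) and Grik1, whose second probe gave -0.59 log2. With median scaling Grin3b and Gabrp fell under 2-fold, and with normexp correction so did Gabrg3 and Grm7. Neuron markers were lower in eye in 18 of 20 cases, with summed levels of 52.3 in eye and 498 in diencephalon/hypothalamus, and mesenchyme and neural crest markers were higher for 6 of 10 (median 1.49).

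Against cortex, eye was higher for more receptor genes than it was lower. Of 40 genes compared, 14 were higher in eye and 6 lower, against 13.7% and 7.59% of all genes, with medians of 0.34 and 0.06. Scaling by medians moves every difference here by -0.51 and gives 8 higher and 7 lower. Gabrp was at least 73.9-fold higher in eye and Grm7 at least 27.4-fold. Grin2c was 14-fold higher (log2 difference 3.81, error 0.27), Gabrg3 11.7-fold and Gabra5 5.28-fold, and the second Gabrg3 probe gave 1.00 log2. The GABA-A subunits Gabrp, Gabrg3 and Gabra5 were thus higher in eye, with Grm7 and Grin2c, while 13 of 20 neuron markers were lower there and 2 higher. Among those lower in eye were Gria2 (19.2-fold, log2 difference -4.27, error 0.22), Grm3 (at least 4.67-fold), Gabrg1 (3.55-fold), Gabra2 (3.16-fold) and Grik2 (2.99-fold). The second Gabra2 probe gave -2.00. With normexp correction Gabra5, Grm3, Gabrg1 and Grik2 were under 2-fold. Mesenchyme and neural crest markers were higher in eye for 7 of 10 (summed levels 136 in eye and 55.8 in cortex), and their part was not tested.

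**Figure D5:**
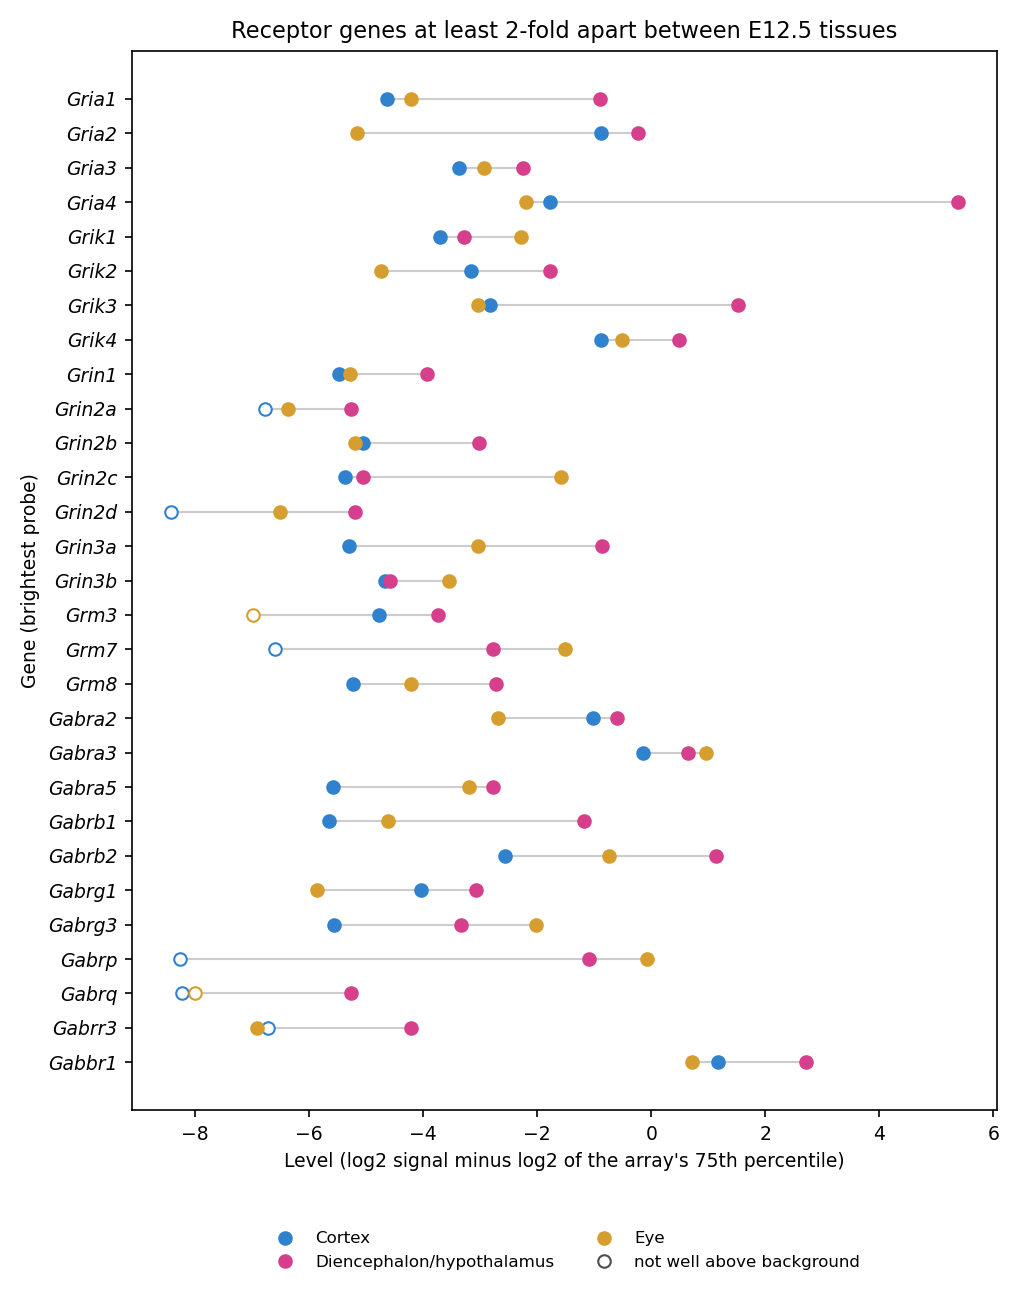
Levels (log2, x axis) of receptor genes that differed at least 2-fold between any of cortex, diencephalon/hypothalamus and eye at E12.5; open circles are not well above background. Diencephalon/hypothalamus is the rightmost point for most genes, and eye is rightmost for genes such as Grin2c, Grm7, Gabrg3 and Gabrp.

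The RAX+ cells were then set beside the tissues. SAG RAX+ cells against diencephalon/hypothalamus gave 24 of 46 genes lower and 3 higher, against 12.6% and 19.2% of all genes, with medians of -1.03 and 0.26. With both arrays required to be well above background 13 were lower. Gria4 was 115-fold lower (second probe -1.99 log2), Gria1 at least 77.7-fold, Gabrb1 at least 45.8-fold, Gabrp 26.5-fold and Grm7 at least 17.0-fold. Among the genes higher in SAG RAX+ cells were Gabbr2 (5.34-fold) and Gabrd (2.80-fold). The second Gabbr2 probe gave 1.69 log2, and Gabbr2 and Gabrd were under 2-fold with normexp correction. The second Gabra2 probe gave -4.88, while the brighter one was within 2-fold. Neuron markers were lower in 13 of 20 cases and higher in 0. Mesenchyme and neural crest markers were lower in the cells for 8 of 9 (median -3.73) and blood and endothelium markers for 7 of 10 (median -3.62), and their part was not tested.

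Activin RAX+ cells against eye gave 14 of 43 genes lower and 12 higher, against 10.2% and 22.8% of all genes, with medians of 0.17 and 0.34. Gabrp was 31.4-fold lower in the cells, Grm7 at least 24.9-fold, Grin3a at least 8.63-fold, Grik1 5.88-fold and Grin2c 5.59-fold. The second Grin3a probe gave 0.59, with the opposite sign. Higher in the cells were Grik3 (7.68-fold), Gabbr2 (6.35-fold), Gabra2 (5.99-fold), Grin2a (4.74-fold), Gabrd (3.77-fold) and Grm4 (2.95-fold). The second probes of Gabra2 and Grin2a were not well above background in the cells and were at least 6.20-fold and 1.61-fold lower there, again with the opposite sign. The second Grm4 probe gave 0.54 log2, under 2-fold. Grin2a, Gabrd and Grm4 were under 2-fold with normexp correction. Eye-defining markers were lower in the cells for 10 of 10 (median -6.63) and neuron markers lower for 3 and higher for 6 of 20. Mesenchyme and neural crest markers were lower for 10 of 10 (median -4.63) and blood and endothelium markers for 7 of 10 (median -4.07), and their part was not tested.

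Across the 8 arrays, by the brightest probe, 3 of 46 receptor genes were lower on all 3 tissue arrays than on all 5 culture arrays, against 10.1% of all genes, and 0 were higher, against 4.25%. Gabbr2 showed the wider gap. It read -2.91 and -3.39 in activin RAX+ and RAX- cells, -3.64 and -3.03 in SAG RAX+ and RAX- cells and -2.92 in the Wi control, and -5.42, -6.06 and -5.58 in cortex, diencephalon/hypothalamus and eye. Its second probe did not separate cultures from tissues: activin RAX+ cells read -4.84 and activin RAX- cells -5.89, the latter not well above background, against -4.96 in cortex and -5.71 in diencephalon/hypothalamus. For the other genes, Grm5 and Grm2, the tissues lay at -3.93 to -3.85 and -1.64 to -1.56 and the lowest cultures at -3.77 and -1.46, gaps smaller than the scanner error. Scaling by medians left 1 such gene.

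The levels of the receptor genes were also set against those of neuron markers. The correlation with the median level of the 20 neuron markers over the 8 arrays was at least 0.7 for 11 of 46 genes, against 3.76% of all genes. This is a description over 8 arrays that differ in depth and tissue. Among them were Gria2, Grik2, Grik5, Grin3a, Grm3, Gabrb1, Gabrb2, Gabrg1 and Gabbr1. Gria2 had the value 0.98. With the median of 12 progenitor markers 2 of 46 genes, Grik2 and Grik5, reached 0.7, against 2.47% of all genes. Glycine receptor genes, a related inhibitory family, were detected in part: Glra3 was not well above background on any array, and Glrb was on all 8.

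Many GABA-A genes lie in clusters, and the mm9 probe positions gave the order Gabrg1, Gabra2, Gabra4 and Gabrb1 on chromosome 5 and Gabre, Gabra3 and Gabrq on chromosome X. In the SAG gate comparison Gabrb1 of the chromosome 5 cluster was lower in RAX+ cells and Gabra4 was not past 2-fold. Gabra2 was within 2-fold by its brighter probe and 5.07-fold lower by the dimmer one, which was well above background on both arrays. The brightest Gabrg1 probe was not well above background on either array, and the second one was at least 3.72-fold lower in RAX+ cells.

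Promoter sequence was read for 32 of the 47 genes from RefSeq (GRCm38.p6), as 300 bases with 250 before the annotated start. The dinucleotide CG, which reads the same on both strands, was counted as a description of base composition. Its median count was 17.5 (0 to 50) for the 20 matched genes that were well above background on all 8 arrays, 10.5 (2 to 26) for the 12 others and 7 for all 32851 promoters. At least 20 CG were found in 40.6% of the matched receptor genes and 26.5% of all promoters. Only the first listed promoter of a receptor gene was used, while the values for all promoters count every listed one. The 250 bases before the start are shown for Gabra6, not well above background on any array, and for Grik3, detected on all 8, with each CG in capitals. Grik3 had the highest count of the 20 genes, at 50, and Gabra6 the lowest of the 12 others, at 2, and other genes go the other way. Gabra3, Gabrr2 and Grin3b, detected on all 8 arrays, had 0, 2 and 3 CG in the 300 bases. Grik2, Gabrb1 and Gabrq, detected on fewer, had 26, 25 and 23. Gabra6 lies at chr11:42321073-42321322, minus strand, and Grik3 at chr4:125490446-125490695, plus strand:
Gabra6: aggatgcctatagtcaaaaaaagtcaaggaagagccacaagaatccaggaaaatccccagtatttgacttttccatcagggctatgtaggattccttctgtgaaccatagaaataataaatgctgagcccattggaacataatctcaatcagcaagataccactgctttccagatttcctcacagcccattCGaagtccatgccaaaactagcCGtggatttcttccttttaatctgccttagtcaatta
Grik3: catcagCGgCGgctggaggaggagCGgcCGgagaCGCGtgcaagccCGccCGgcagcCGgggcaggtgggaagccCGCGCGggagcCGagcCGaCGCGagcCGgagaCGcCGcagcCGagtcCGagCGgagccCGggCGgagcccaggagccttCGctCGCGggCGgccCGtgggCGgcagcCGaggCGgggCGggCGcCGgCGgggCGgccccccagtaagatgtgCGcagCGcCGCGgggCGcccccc
The Gabra6 stretch holds 2 CG and the Grik3 stretch 42.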

How the data were processed

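Total RNA was labelled with Cy3 from 50 ng and hybridised to single-colour Agilent arrays, per the labels' protocols. Per the file headers, the authors scanned them with Feature Extraction 10.7.3.1; the submitters' processing notes name version 9.1 and limma. The deposited scanner files hold intensity per spot, background-subtracted within the array by the authors, and spot flags. The authors' deposited value table holds log2 values normalized between arrays, with column medians of 6.36 to 6.40 and its background step not given in the sources used here; it served as an alternative.

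Here control spots and outlier spots were dropped, repeated spots averaged, and log2 signals scaled by each array's 75th percentile. Spots were matched by probe, because the Wi control's file names 6422 probes differently (6 of the 78 receptor probes); names came from the 7 other files. There were 0 saturated spots. The number of arrays limits the precision. limma 3.58.1 (R 4.3.3) was tested on simulated data. In each pair of arrays up to 6 genes past 2-fold in each direction were named with values. The genes and marker lists were chosen with earlier results of these data known. Alternatives were median scaling, quantile normalization, normexp background (offset 50), the authors' values, detection on both arrays, and the second probe. Some receptor genes are not reported here by name; counts and medians over the 47 genes hold them.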

Additional observations from a re-analysis of the deposited data

Results flagged for a closer look

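Some receptor genes differed in opposite directions under the same contrast in different cells; with 1 array per group none of these contrasts between differences was tested. Gabrb2 was higher in RAX+ than in RAX- cells after activin (log2 difference 1.27) and lower after SAG (-1.20); the first value was 0.95 with median scaling and 0.85 with normexp correction, under 2-fold. Grid1 was higher after activin than after SAG in RAX+ cells (at least 1.98 log2) and lower in RAX- cells (-1.05 or further). Grin2a showed 1.18 in RAX+ and -1.17 in RAX- cells for activin against SAG, with its 2 probes at a correlation of -0.16 over the arrays. Gabrr3 showed 1.60 and -5.60 as bounds for the same contrasts, and its second probe was not well above background on any array.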

How the results depend on the processing

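No paired analysis was possible because each group is 1 array, apart from the limma fit of the sorted arrays, which sets RAX+ beside RAX- cells within each treatment. Counts of genes well above background stayed within 1.5 times, and the limma fits gave 0 calls under each alternative run. Neither can be read as stability. The counts were 29 to 46 of 47 genes and counting any probe can only add genes, which left little room to move. The limma fit had 1 residual degree of freedom and called 0% of all genes from the start. Among counts of receptor genes past 2-fold, 75 stayed within 1.5 times of the values reported and 33 moved; the cause was not tested beyond what each alternative does by construction. With normexp background correction, which adds an offset and so compresses weak signals, the SAG gate gave 6 lower, the activin gate 2 higher and 1 lower, and activin against SAG gave 0 higher and 4 lower in RAX+ cells and 10 lower in RAX- cells. It gave 7 higher and 3 lower for eye against cortex, 1 higher for eye against diencephalon/hypothalamus, 15 lower for cortex against diencephalon/hypothalamus, 4 higher for activin RAX+ cells against eye, and 0 higher and 12 lower for SAG RAX+ cells against diencephalon/hypothalamus. Requiring both arrays well above background, which removes genes, left 11 lower in the SAG gate, 4 higher in the activin gate, 2 higher in RAX+ and 11 lower in RAX- cells for activin against SAG, and 13 lower for SAG RAX+ cells against diencephalon/hypothalamus.

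Median scaling gave 3 higher and 9 lower in the activin gate, 8 higher for eye against cortex, 4 higher for eye and 1 higher for cortex against diencephalon/hypothalamus. Quantile normalization gave 4 higher and 8 lower in the activin gate, 9 higher for eye against cortex and 1 higher for SAG RAX+ cells against diencephalon/hypothalamus. The authors' values gave 4 higher in the activin gate, 1 higher in the SAG gate, 1 higher for activin against SAG in RAX+ cells, 9 higher for eye against cortex, 7 higher for activin RAX+ cells against eye and 1 higher for SAG RAX+ cells against diencephalon/hypothalamus. Of the genes with all tissues below all cultures, 1 was left by median scaling, by normexp and by the authors' values.

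The second brightest probe reversed 5 named differences: Grin3a (0.09) and Grik3 (0.32, a bound) for activin against SAG in RAX+ cells, and Gabra2 (-2.63, a bound), Grin2a (-0.69, a bound) and Grin3a (0.59) for activin RAX+ cells against eye. Probes not well above background give bounds, which limits folds for weak genes.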
